A study of Homo sapiens with 2 samples.

Results

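Methylated adenosines listed in pseudogenes were compared with those of the genes the pseudogenes are named after. A site was taken where its gene name ended in P and a number and the rest of the name was itself a gene with a listed site, as in RPL29P4 and its parent RPL29. This gave 1601 sites in 684 names with 380 parents, of 93541 sites in 11406 named genes and outside named genes (1.71% of all sites). Replicate 1 listed 1214 of these sites, replicate 2 listed 1363, and 976 sites in 453 names were listed in both. The parents had 2238 sites, 1539 of them in both replicates. N6-methyladenosine (m6A) was measured by GLORI in HEK293T cells of the wild type, a transformed kidney line in long use, at day 0. The labels give 2 replicates of this 1 group, each from 100 to 200 ng of oligo(dT)-purified mRNA made into a library by a modified eCLIP procedure. There is no untreated or second group, and whether the replicates were separate cultures is not stated. All comparisons are therefore between genes and between sites within these libraries.

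A processed pseudogene is a copy of an mRNA that was reverse transcribed and inserted elsewhere in the genome, without the introns of its parent and usually without a promoter. Genes with abundant mRNA, above all those of ribosomal proteins, have many such copies. In GLORI, glyoxal and nitrite turn unmethylated adenosine into inosine, which is read as G, while m6A is still read as A, so that the level of a site is its A reads over its A plus G reads. m6A is laid down mainly by the METTL3 and METTL14 complex, most often where C follows the methylated A. Reads from a young copy and from its parent can be alike over their whole length, and turning A into G removes some of the differences that remain. The sources used here do not state how reads that match both were assigned. A listed site of a pseudogene and RNA from its parent cannot be told apart on that ground alone.

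The annotation mostly bore out that the names are pseudogenes, though not that they are processed ones. Of the 684 names, 605 were annotated as pseudogenes and 67 as transcribed pseudogenes in NCBI RefSeq (GRCh38.p14), 9 were protein-coding and 3 were not matched. The protein-coding names include THRAP3 and CHMP6, which were taken because THRA and CHM had listed sites and are no copies of these. The median pseudogene spanned 1402 nt and the median parent 12550 nt, introns included. The span was under 50% of the parent's in 622 of 671 pseudogenes, and 604 of 672 lay on another chromosome than their parent. The span alone does not show whether introns are missing, in the 49 longer ones or in the others. Under 50% there were also long spans, such as HERC2P2 (95995 nt, 45.5% of its parent's) and EP400P1 (42058 nt, 32.2%). Exon structure was not analysed here. Another annotated gene on the same strand covered 238 of the 1601 sites, so those sites could also belong to it.

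The sequence around 4 sites in 3 of the pseudogenes could be read, because those sites lie inside a promoter window of a neighbouring gene. They are shown 5′ to 3′ on the strand of the site, from RefSeq's GRCh38.p14, with the listed A in capitals. PTMAP4 is named after PTMA, which encodes prothymosin alpha, a small acidic nuclear protein. NUS1P2 is named after NUS1, a subunit of the enzyme that makes dolichol, and ZNRF2P2 after ZNRF2, a ubiquitin ligase.
PTMAP4, chr12:9239974-9239998, minus strand: aagttaaactaaAaaaaaaaggccg
PTMAP4, chr12:9240027-9240051, minus strand: tcgatacccagaAgcagaagaccga
NUS1P2, chr13:22916413-22916437, plus strand: cacatcagattgActgagattgtct
ZNRF2P2, chr7:29685300-29685324, minus strand: cggcggccctggAcgtgcgggggcc
The first PTMAP4 site was listed at 14.6% in replicate 1 (6 A of 41 reads, 95% Wilson interval 6.88 to 28.4) and the second at 11.4% in replicate 2 (9 of 79, 6.11 to 20.3). The NUS1P2 site had 36% (9 of 25 reads, 20.2 to 55.5) and the ZNRF2P2 site 100% (15 of 15, 79.6 to 100), both in replicate 2. Each of these 4 sites was thus listed in 1 replicate. The letters AC, read on the strand of the site from the listed A, stood at 2 of the 4 sites. Among all 1051 sites that lay in a promoter window of their strand and were listed in both replicates, 50.05% had them.

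The levels of pseudogene sites were spread like those of their parents. Over sites listed in both replicates, the median level was 38.7% in pseudogenes (95% binomial interval of the median 36.6 to 41.3, n = 976), 39.2% in parents (37.1 to 41.6, n = 1539) and 44.6% over all sites (44.3 to 45, n = 60462). Levels under 20% made up 22.4% of the pseudogene sites, 21.2% of the parent sites and 15.2% of all. Pseudogene sites were somewhat shallower than parent sites, with a median of 107 reads over both replicates against 125. Sites listed in both replicates made up 61.0% of pseudogene sites (Wilson interval 58.5 to 63.3), 68.8% of parent sites (66.8 to 70.7) and 64.6% of all sites, shares whose difference was not tested. Each list was cut by the authors, the lowest remaining values being 15 reads, 5 A reads and a level of 10%, so a site missing from a list says nothing about its methylation.

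At sites listed in both replicates, no difference beyond the sampling of reads was called. Fisher's exact test, two-sided, with Benjamini-Hochberg adjustment over all 60462 shared sites called 0 of the 976 pseudogene sites, and 30 had an unadjusted p under 0.05. Over all sites the share called was 0%. The 238 pseudogene sites listed in replicate 1 alone and the 387 in replicate 2 alone could not enter this test. The files are therefore counted as 1 sample, levels are given for each or from the summed counts, and intervals cover counting error only.

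The strand of the pseudogenes was uneven and went with the strand of the parent. All sites of each name lay on 1 strand. The plus strand held 461 of the 672 annotated pseudogenes (68.6%, Wilson interval 65.0 to 72.0), 133 of the 380 parents (35%, 30.4 to 39.9) and 6254 of all 11406 named genes with a listed site (54.8%, 53.9 to 55.7). Among pseudogenes of parents on the minus strand, 321 of 404 lay on plus (79.5%, 75.2 to 83.1). Among pseudogenes of parents on the plus strand, 140 of 268 did (52.2%, 46.3 to 58.1). Plus and minus are directions of the reference and have no meaning for a gene by themselves. Other pseudogenes, those that the name rule did not take, were also mostly on plus (263 of 366, 71.9%, 67.0 to 76.2), whereas 52.6% of the protein-coding genes with a listed site were (51.6 to 53.6, n = 9585). Over all 684 names, the pseudogene lay on the same strand as its parent in 229 (33.5%). These intervals treat genes as independent, which copies of 1 parent may not be.

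**Figure D1:**
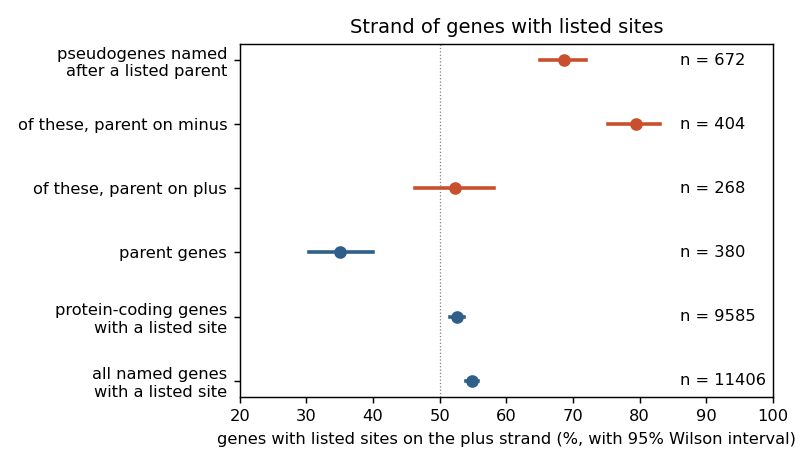
Share of genes whose listed sites lie on the plus strand (x axis, percent), for pseudogenes named after a listed parent, the same split by the strand of the parent, the parents, and genes with listed sites at large; points are shares, bars 95% Wilson intervals. Pseudogenes of minus-strand parents stand highest at 79.5%, and the parents lowest at 35%.

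The coverage of a pseudogene relative to its parent also differed between these strand groups. The deposited coverage of the pseudogene over that of its parent had a median of 0.466 in replicate 1 (525 pairs) and 0.456 in replicate 2 (577 pairs), with ranges of 0.00341 to 7.25 and 0.00187 to 8.22. For plus-strand pseudogenes of minus-strand parents the median ratio was 0.916 in replicate 1 (95% interval of the median 0.817 to 1.02, 263 pairs) and 0.890 in replicate 2 (0.800 to 0.996, 274 pairs). Where both were on plus it was 0.183 and 0.161 in replicates 1 and 2. With the pseudogene on minus and the parent on plus it was 0.234 and 0.239, and with both on minus 0.106 and 0.0957. Of the 109 pseudogenes with more coverage than their parent in both replicates, 95 were on plus with a parent on minus (87.2%). Of all 426 pairs with coverage in both replicates, 223 were of that kind. The parents in these groups also differed in coverage: the median parent had 53.3 in replicate 1 where the pseudogene was on plus and the parent on minus, against 341 in the plus with plus group, 341 in the minus with plus group and 433 in the minus with minus group. The median pseudogene coverage varied less, at 52.2, 36.6, 46.0 and 34.8 in replicate 1 in the same order of groups. The part of parent coverage in the difference of ratios was not tested. Without pseudogenes that have a site inside another gene, the plus with minus median was 0.945 and 0.937 in replicates 1 and 2, and 0.916 and 0.874 for pseudogenes on another chromosome than their parent. The sources used here do not state how the authors computed this coverage.

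**Figure D2:**
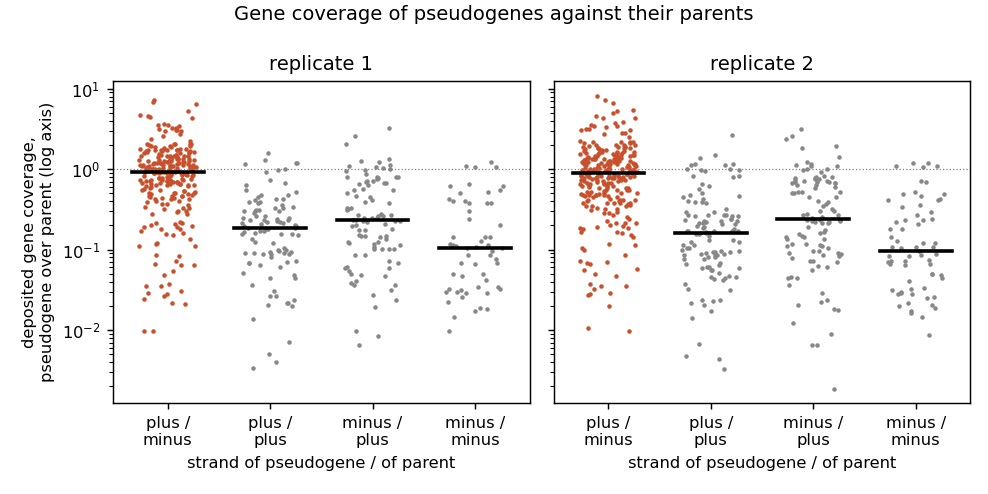
Deposited gene coverage of each annotated pseudogene over that of its parent (y axis, log scale) by the strands of pseudogene and parent (x axis), for each replicate; points are pseudogenes, black lines medians, the dotted line equal coverage. Plus-strand pseudogenes of minus-strand parents centre near equal coverage (medians 0.916 and 0.890), the other 3 groups between 0.0957 and 0.239.

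The 12 largest coverage ratios all fell in that group. UQCRFS1P1, a copy of the gene for the Rieske iron-sulfur subunit of respiratory complex III, had a coverage of 213 and 243 in replicates 1 and 2, and UQCRFS1 had 29.4 and 29.6. SERBP1P1 had 368 and 412, and SERBP1, which encodes an RNA-binding protein found on ribosomes, had 53.9 and 57.3. UBE2SP2 had 1012 and 1168, and UBE2S, an E2 enzyme of the anaphase-promoting complex, had 189 and 212. EEF1DP1 had 298 and 346, against 46.6 and 52.1 for EEF1D, a subunit of the exchange factor of translation elongation. The deepest site was deeper in the pseudogene than in its parent for 132 of the 684 names (19.3%). RPL29P4 stood out: its deepest site had 14269 reads over both replicates, and the deepest site of RPL29, a protein of the large ribosomal subunit, had 1019. RPL3P3 had 15728 reads at its deepest site, and RPL3, another protein of that subunit, had 9776 at its own.

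Taken gene by gene, the mean level of a pseudogene lay about as often above that of its parent as below. Of 416 pairs with shared sites in both, 215 pseudogenes were above and 201 below, with a median difference of 0.35 percentage points (quartiles -8.32 and 11.6). In 209 pairs the means lay within 10 points. The median depth of a shared site in these pairs was 117 reads in the pseudogenes and 310 in the parents. Conversion, the deposited fraction of A turned to G over a gene, was also alike, with medians of 97.95% and 97.92% in pseudogenes of replicates 1 and 2 against 97.91% and 97.93% in parents, and 97.59% and 97.62% over all genes.

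Among the listed parent families, ribosomal protein copies were the most numerous, with 105 names from 25 parents. Their shared sites had a median level of 22.9% (85 sites), against 26.9% in the parents (57 sites). Matched by gene, 36 of 60 copies were above their parent and 24 below, with a median difference of 1.02 points. Their median coverage ratio in replicate 2 was 0.0715, with 4 of 85 above 1, beside 0.456 over all pairs. Copies of tubulin, actin and keratin genes, which encode the cytoskeleton, numbered 44 from 10 parents. They had a median level of 39.5% against 29.6% in parents and a coverage ratio of 0.151. Copies of translation factor genes (38 from 10 parents) had a median level of 33.7% against 28.04% and a ratio of 0.0622. Copies of HNRNP and SR splicing factor genes (26 from 7 parents) had 21.3% against 32.1% and a ratio of 0.196. The 406 names of no listed family had 43.5% against 41.1% and a ratio of 0.785, with 128 of 347 above 1. Within the ribosomal protein copies, the ratio was 0.357 for plus-strand copies of minus-strand parents (14 pairs) and 0.0804, 0.0592 and 0.0403 in the plus with plus, minus with plus and minus with minus groups. The families were not alike in this. For translation factor copies the ratio was 0.0538 in the plus with minus group (18 pairs), below the 0.171 of plus with plus (3 pairs) and the 0.680 of minus with plus (5 pairs). For tubulin, actin and keratin copies it was 0.194 in the plus with minus group (20 pairs), close to the 0.177 of minus with plus (2 pairs). These counts describe the lists, whose differences in level were not tested.

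Within families, different copies often had a site at nearly the same distance from their annotated start or end. The windows of 10 nt described next were picked from the data as those holding the most copies, so they are a description with no test. EEF1A1, the elongation factor that brings aminoacyl-tRNA to the ribosome, had the most copies, 25 with 41 sites. Of these, 10 had a site between 350 and 358 nt from their start, with levels of 10.2% to 22.7% (median 11.5%) at 22 to 3150 reads. EEF1A1 itself had 4 sites listed in both replicates, with a mean level of 42.3%. Its site at 12.02% (10383 reads) was not matched to the copies by position. The deepest of the copies, EEF1A1P2, had 10.84% and 10.87% in replicates 1 and 2 (1421 and 1729 reads). The deepest EEF1A1 site had 57.1% (13701 reads), above all 10 copies of this group. In addition, 5 copies had a site 235 to 239 nt from their end, with levels of 14.3% to 66.0%, and 4 a site 120 to 126 nt from their end with 56.7% to 78.8%.

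HNRNPA1, a splicing regulator, had 19 copies with 20 sites, 8 of them between 182 and 187 nt from the start. Their levels ran from 12.6% to 23.3% with 39 to 663 reads, and the deepest HNRNPA1 site had 17.6% (2238 reads). RPSA, a protein of the small ribosomal subunit, had 13 copies, 7 of which had a site 255 to 264 nt from their end at 12.04% to 20.8%. The deepest RPSA site had 11.5% (19960 reads). RPL3 had 9 copies, of which 6 had a site at 326 to 335 nt from the start (12.6% to 21.7%) and 6 a site at 275 to 283 nt from the end (14.4% to 19.0%). The 3 sites of RPL3 had 11.6%, 14.4% and 15.1%. The levels of the copies in these groups were low. A second HNRNPA1 group, 3 copies with a site 23 to 28 nt from their end, had 50.3% to 56.1%. The HNRNPA1 and RPSA sites are named by depth, and none of these parent sites was matched to the copies by position.

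Other groups had high or mixed levels. ACTG1, the gene for cytoplasmic gamma-actin, had 16 copies, of which 5 had a site at 524 to 533 nt from the start with levels of 88.9% to 95.7%. ACTG1P9 had 95.7% (4950 reads), ACTG1P3 95.6% (2315 reads), and the deepest ACTG1 site had 95.5% (5942 reads). A second group of 4 copies, at 221 to 225 nt, was mixed, with 95.6% in ACTG1P24 (2238 reads) and 14.02% to 15.2% in the other 3. FTH1, which encodes the heavy chain of the iron store ferritin, had 10 copies, 4 of them with a site in their first nucleotides at 68.6% to 84.9%. FTH1P8 had 84.4% there (1185 reads) and FTH1P23 68.6% (255 reads), whereas FTH1 had 64.2% at the site 3 nt from its start (596 reads). Copies of PTMA at a like distance differed widely. Of its 10 copies, 4 had a site 3 to 5 nt from the start, with levels of 66.4%, 32.6%, 18.4% and 11.8% in PTMAP1, PTMAP12, PTMAP13 and PTMAP3. RPL13A, of the large ribosomal subunit, had 11 copies, 7 with a site at 638 to 645 nt from the start and levels of 43.0% to 61.3%. RPL13A itself had 74.3% (6078 reads) and 61.2% (9364 reads) at its most methylated sites.

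**Figure D3:**
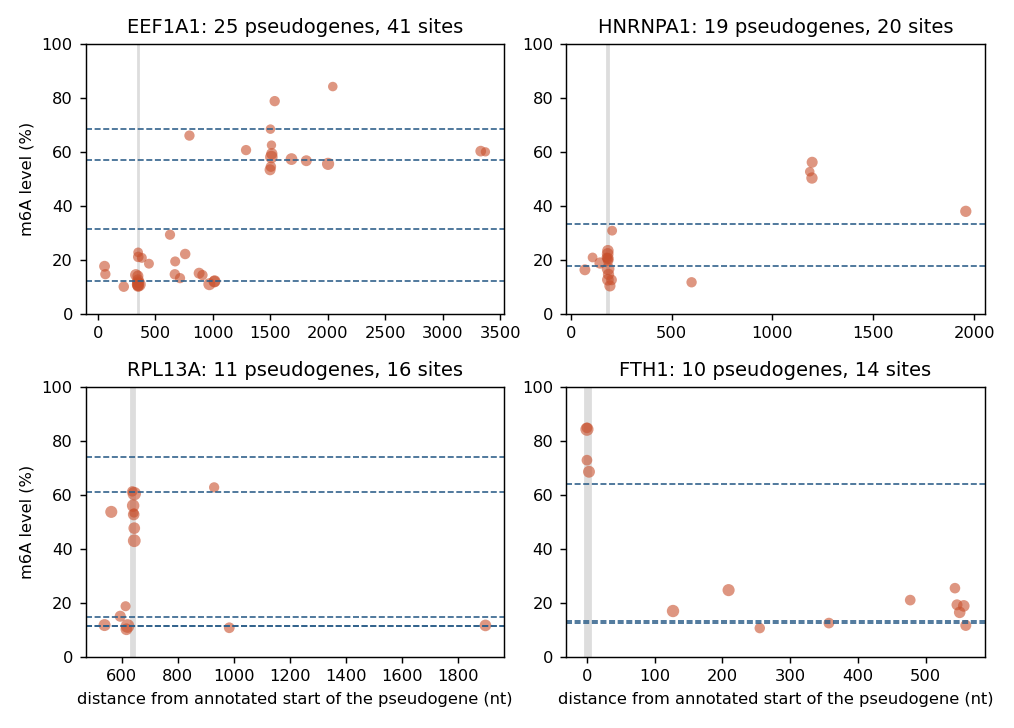
Level of every listed site (y axis, percent) against its distance from the annotated start of its pseudogene (x axis, nt) for the copies of EEF1A1, HNRNPA1, RPL13A and FTH1; point size follows the logarithm of the reads, the grey band marks the window holding the most copies, and dashed lines give the levels of the parent's sites listed in both replicates. The EEF1A1 and HNRNPA1 copies in the bands sit near a low level of their parent (12.02% and 17.6%), and the RPL13A copies at 43.0% to 61.3%, under the parent's highest level of 74.3%. The parent's sites were not matched to the copies by position.

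Single sites were then paired by spacing. No genome was at hand to align the copies, so a pseudogene and a parent site were paired where at least 2 sites of each were separated by exactly the same number of nucleotides along their strands. Spacings of 4 or more pairs were kept, those of 3 pairs where the genes allowed at most 200 site combinations, and those of 2 pairs where they allowed at most 15. This rule was set after the levels had been seen, and an equal spacing is not proof of the same base. It gave 175 pairs in 68 pseudogenes of 50 parents, of which 118 in 59 pseudogenes had both sites listed in both replicates and were tested. Several copies share a parent site, so the pairs are not independent.

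Under this pairing, levels were close in most tested pairs. Both sites had to be listed in both replicates, so a position under the 10% limit in either gene could not enter. Differences of that kind are left out of the values below. The median absolute difference was 3.02 points, 81 of 118 pairs lay within 5 points and 100 within 10. Across pairs, Pearson's r was 0.88 and Spearman's rank correlation 0.86, given as a description. The rank correlation was 0.75 with every spacing of at least 2 pairs and 0.48 when a site could enter several pairs. Fisher's exact test on the summed counts, adjusted by Benjamini-Hochberg, called 11 pairs different (9.32%), 5 of them higher in the pseudogene (4.24%) and 6 lower (5.08%), and 16 had an unadjusted p under 0.05. The near-even split rests on both replicates: without replicate 1, 1 of 7 called pairs was higher in the pseudogene, and without replicate 2, 2 of 8. A pair not called is not shown to be equal, since the median depth was 174.5 reads in the pseudogenes and 421 in the parents. The count depends on the pairing: when every spacing shared by at least 2 pairs was taken, 28 of 204 tested pairs were called (13.7%), and 109 of 317 when a site could enter several pairs (34.4%). With spacings of at least 3 pairs, 6 of 69 were called. Among sites of at least 20%, Fisher's exact test called 0 of 79, with 3 at an unadjusted p under 0.05. Pairs were formed anew there, so a pair could be lost where its spacing partner fell under 20%. The RPL13AP25 pair, at 60.5% against 74.3% in RPL13A, was lost in that way. The 0 thus does not cover all pairs of such levels.

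**Figure D4:**
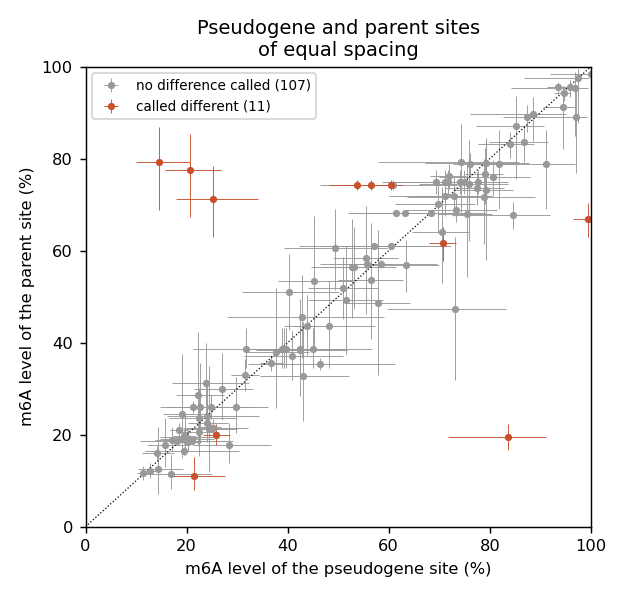
Level of the pseudogene site (x axis, percent) against that of the parent site (y axis, percent) for the 118 tested pairs of equal spacing; bars are 95% Wilson intervals on the summed counts, and the dotted line marks equal levels. Grey points (107) were not called different by Fisher's exact test and mostly lie near the line, with CSNK1A1P3 farthest off (73.1% against 47.2% in CSNK1A1), and 11 were called.

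The deepest pairs were in RPL29P4, on the plus strand of chromosome 6. Its position 117999477 had 75.4% and 74.4% in replicates 1 and 2 (6552 and 7717 reads), and position 51993720 of RPL29 on chromosome 3 had 74.4% and 75.4% (461 and 558 reads). The difference was -0.13 points with a counting standard error of 1.40. Its position 117999469 had 39.3% and 39.4%, and the RPL29 site 42.4% and 35.6%. The same 8 nt spacing was found in RPL29P11, RPL29P12, RPL29P19, RPL29P26 and RPL29P27, whose upper sites had 69.3% to 77.6% and lower sites 31.7% to 44.9%. No pair of these copies was called. RPL29P4 had far more reads than these copies. Its gene coverage was 2054 and 2403, against 1964 and 2153 for RPL29, and RPL29P12 and RPL29P26 had 56.9 and 58.4 in replicate 1.

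Pairs of 5 further copies were not called either. In SLC25A6P2, a copy of an ADP/ATP carrier gene of the mitochondrial inner membrane, 3 sites had 20.2%, 31.5% and 24.5% (1344, 1087 and 1500 reads), and the SLC25A6 sites had 18.6%, 32.9% and 21.7%. In GLULP4, 4 sites had 24.8%, 17.2%, 86.8% and 95.9%, and those of GLUL, glutamine synthetase, had 25.9%, 18.9%, 83.7% and 95.6%. In CLIC1P1, 43.8% and 79.0% stood against 43.7% and 76.8% in CLIC1, a chloride channel protein. In EIF3LP3 the levels were 36.8% and 76.0%, and 35.5% and 78.9% in EIF3L, a subunit of translation initiation factor 3. In DYNLL1P1 they were 69.8%, 63.3% and 83.9%, and 70.1%, 56.8% and 83.1% in DYNLL1, a dynein light chain. In each of these copies the levels stood in the same order as in the parent. GLULP4 and DYNLL1P1 were chosen after their values were seen, so this describes the copies named. The order was not kept in TAF5LP1, described below.

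PBX2P1 had the most tested pairs, 6 with PBX2, a homeobox transcription factor. The copy lies on the plus strand of chromosome 3 and the parent on the minus strand of chromosome 6. From position 143178091 on, its levels were 57.9%, 24.4%, 70.6%, 26.9%, 22.5% and 19.1%, with 219 to 485 reads. Those of PBX2 were 48.6%, 21.3%, 64.1%, 29.9%, 20.6% and 24.5%, with 35 to 189 reads. The largest gap, 9.35 points at the first pair, had a counting standard error of 9.08, and no pair was called. PBX2P1 was the deeper of the pair at each of these sites and in gene coverage (102 and 120, against 23.4 and 26.0). It had 16 sites listed in both replicates, and PBX2 had 8.

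**Figure D5:**
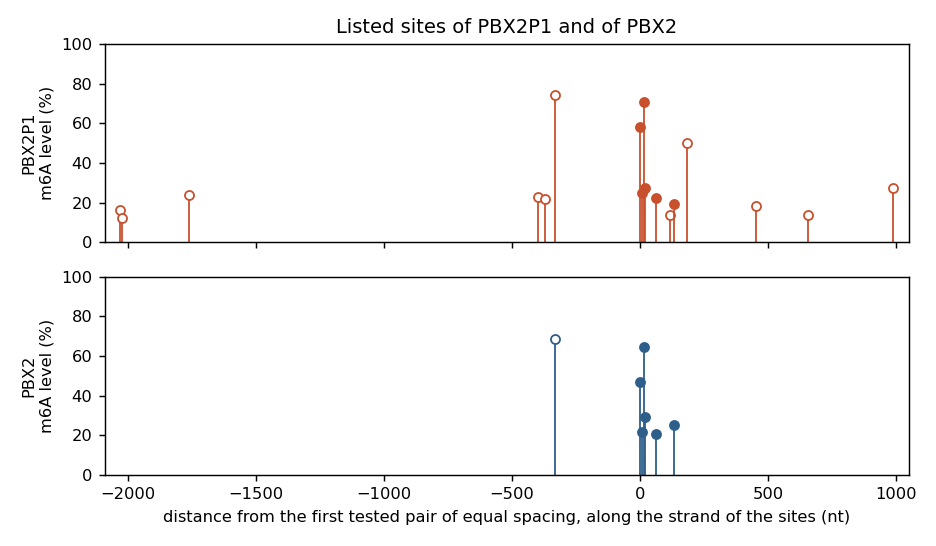
Level (y axis, percent) of every listed site of PBX2P1 (top) and PBX2 (bottom) by distance from the first tested pair of equal spacing (x axis, nt); filled points are the 6 tested pairs, open points other listed sites, and 1 PBX2 site outside the drawn range is left out. The highest filled points, 70.6% and 57.9% in PBX2P1, pair with the highest in PBX2, 64.1% and 48.6%, and the other 4 lie under 30% in both genes.

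Of the 11 pairs called, 3 were copies of RPL13A set against its site at position 49491827 of chromosome 19. RPL13AP25 had 60.7% and 60.3% in replicates 1 and 2 and the RPL13A site 73.6% and 74.9%, a difference of -13.8 points with a counting standard error of 1.26 (Fisher's exact test, adjusted p = 1.1e-27). By the same exact test, RPL13AP3 had 56.4% (adjusted p = 2.3e-15) and RPL13AP2 53.8% (adjusted p = 1.5e-12), each lower than the parent in both replicates. RPL13AP9 had 60.9% at 46 reads and was not called. The second RPL13AP25 site of that pairing, 24 nt away, had 11.5% against 11.6%. The remaining lower calls were 3 sites of TAF5LP1, whose parent encodes a subunit of a histone acetyltransferase complex. They had 20.7%, 14.5% and 25.2%, against 77.5%, 79.2% and 71.3% in TAF5L. This pairing rests on 3 equal spacings among 156 combinations, and the other 3 sites of TAF5LP1, left unpaired, had 75.6%, 82.1% and 87.5%.

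The 5 calls higher in the pseudogene were in 5 different copies. XBP1P1 had 100% and 98.9% in replicates 1 and 2 (71 and 90 reads), and the paired site of XBP1, a transcription factor of the unfolded protein response, had 68.3% and 65.7% (Fisher's exact test, adjusted p = 1.4e-21). XBP1 also had sites at 97.8% and 98.8%, so the pairing decides this difference. GPX1P1 had 84.6% and 82.8% at 26 and 29 reads, against 18.7% and 20.1% in GPX1, a glutathione peroxidase (exact test, adjusted p = 6.4e-21). The GPX1P1 site is at the first nucleotide of the copy, and the GPX1 site at that distance, listed in 1 replicate, had 13.4%. ACTBP2 had 70.8% against 61.6% in ACTB, cytoplasmic beta-actin (exact test, adjusted p = 0.00094). RPS24P8 had 21.5% against 11.0% in RPS24, of the small ribosomal subunit (exact test, adjusted p = 0.024). BTF3P5 had 25.8% against 19.9% in BTF3, a subunit of a complex that binds nascent polypeptides (exact test, adjusted p = 0.011). Tested 1 replicate at a time, 8 of the 11 pairs were called in both, the ACTBP2 pair in replicate 1 alone, and the RPS24P8 and BTF3P5 pairs in neither.

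Plus-strand copies of minus-strand parents supplied 69 of the 118 tested pairs, in 32 of 59 copies. They also held 937 of the 1529 sites in annotated pseudogenes, so the pairs are no more than their share. The pseudogene site was the deeper one in 36 of these 69 pairs (52.2%). It was deeper in 0 of 11 pairs with both on plus, in 4 of 28 with the pseudogene on minus and the parent on plus, and in 1 of 10 with both on minus. The median absolute difference in level was 2.99, 3.91, 2.23 and 3.76 points in these groups. The difference between the groups was not tested.

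Among the pseudogenes with the most sites in both replicates, PKD1P2, TCAF1P1, RNF216P1 and SEPTIN7P3 had the longest spans among the copies named here. PKD1P2, on the same chromosome as PKD1, the gene for polycystin-1, had 41 such sites and spanned 21091 nt. Its mean level was 60.8%, with single sites from 20.4% to 97.2%, and PKD1 had 18 shared sites. TCAF1P1 had 17 shared sites with a mean of 39.3%, against 10 sites in TCAF1, a regulator of an ion channel. RNF216P1 had 13 with 51.8%, against 9 in RNF216, a ubiquitin ligase. SEPTIN7P3 had 10 with 68.5%, against 2 in SEPTIN7, a filament-forming GTPase. These copies lie on the chromosome of their parent.

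HS6ST1P1 differed from them in size and place. It is a copy of 4153 nt on chromosome 1, and HS6ST1, a heparan sulfate sulfotransferase gene, lies on chromosome 2. HS6ST1P1 had 36 listed sites, 25 of them in both replicates, with levels of 21.1% to 100% and a mean of 66.2%. HS6ST1 had 5 listed sites, 0 of them in both. Gene coverage was 46.7 and 54.2 in HS6ST1P1, and 10.5 and 10.2 in HS6ST1. HAUS6P3 had 10 shared sites against 1 in HAUS6, an augmin subunit, and RLIMP3 had 10 against 5 in RLIM, a ubiquitin ligase. SEPHS2P1, by contrast, had 9 against 27 in SEPHS2, a selenophosphate synthetase. CHMP6 and THRAP3, with 13 and 11 shared sites, are the protein-coding names mentioned above.

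The highest levels at shared sites of at least 100 reads were near complete methylation. SEPTIN7P3 had 100% in both replicates at position 35968266 of chromosome 7 (59 and 77 reads). SEPHS2P1 had 98.3% and 99.5% at position 14960517 of chromosome 5. HS6ST1P1 had 100% and 98.7% at position 21429020 of chromosome 1, and FEM1AP2 98.67% and 98.68% at position 14391922 of chromosome 18. GLULP1 reached 99.1% and XBP1P1 99.4% as means of both replicates. The lowest lay at the authors' limit of 10%, which cuts off what lies below. SUCLG2P2 had 10.0% and 10.1%, HNRNPDP1 10.2% and 10.3%, and RPSAP45 10.9% and 10.6% with 599 and 668 reads. PGAM1P4, CCNG1P1 and EEF1A1P22 had means of 10.6%, 10.7% and 10.8%.

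Some copies carried a site in their first nucleotides, where the parent could be listed too. Within 20 nt of the annotated start there were 37 pseudogene sites in 36 names, 16 of the sites at the first nucleotide. For 9 of the 36 names, the parent had a site at the same distance. The sequences of 3 of these parents are shown with the listed A in capitals (RefSeq, GRCh38.p14).
CHCHD2, chr7:56106464-56106488, minus strand: tccggtctcctcAgaagtcgcttag
BTF3, chr5:73498436-73498460, plus strand: cggcctccctttAgctgccatcttg
TBCA, chr5:77776325-77776349, minus strand: gcgaccacgcctAaatagccgcagc
CHCHD2P6 had 51.1% at its first nucleotide (198 reads, Wilson interval 44.6 to 58.4), and CHCHD2, a mitochondrial protein gene, had 21.4% (1653 reads, 19.4 to 23.4). BTF3P16 had 19.6% (15.4 to 25.4), against 10.7% in BTF3 (9.62 to 11.8). TBCAP1 had 36.8% (27.9 to 46.4), against 37.9% in TBCA, a tubulin folding cofactor (30.2 to 46.1). ALDH7A1P1 went the other way, with 12.1% (5.97 to 22.9), against 70.1% in ALDH7A1, an aldehyde dehydrogenase (60.6 to 79.5), and ACTBP2 had 73.3% (48.0 to 89.1), against 85.9% in ACTB (80.6 to 90.3). Among the copies given here, the intervals overlap for TBCAP1 and ACTBP2 and are apart for the other 3, and no test was made. The ALDH7A1P1 and ACTBP2 sites, with 58 and 15 reads, were each listed in 1 replicate only. Of the 7 parents of this kind whose sequence could be read, 0 had AC at the site. Among the 1051 sites in promoter windows listed in both replicates, 50.05% had it. Which modification kept the sites near a start read as A was not tested. The annotated start of a copy need not be the start of an RNA.

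Pseudogenes also made up much of what was listed on chromosome Y, by the position to which reads were assigned. Whether these reads arose from chromosome Y or from other copies was not tested. Of 32 sites listed there in either replicate, 17 were in 10 of the names, 8 of them in both replicates. The deepest were in ACTG1P11, a copy of ACTG1 on the plus strand. Its position 18148341 had 95.2% and 94.2% in replicates 1 and 2 (684 and 823 reads), and ACTG1 had 95.5% at its deepest site. Its positions 18148035 and 18149106 had 14.02% and 15.5%, and the other ACTG1 sites had 12.5% to 84.7%.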

How the data were processed

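GLORI libraries of wild-type HEK293T mRNA (2 replicates of 1 group) were analysed from the authors' lists of called sites. Per the file headers, the deposited counts are the reads showing A or G and those showing A at each site. The deposited fraction equalled their ratio within 5e-06 and is the level. Per the file headers, the deposited gene coverage (a signal per gene) and a conversion fraction are given by gene, and each site has a p-value and an adjusted p-value from the authors, at most 0.00401. Per the submitters' processing notes, the GRCh38 build was used, and STAR, SAMtools, Bowtie and Trim Galore 0.6.6 are listed with no order. The sources used here do not state the site caller, the annotation or the treatment of reads with several matches. Listed sites held 5221660 and 6306522 reads in replicates 1 and 2, which is not the depth of the libraries, and pseudogene sites held 2.87% and 2.83% of them. Reads may repeat the same molecule, so intervals cover counting error only.

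Pseudogenes were found by name, and 681 of 684 names were matched to RefSeq for biotype and span. Sites were compared with Fisher's exact test, two-sided, and Benjamini-Hochberg adjustment at 0.05 (scipy 1.17.1, statsmodels 0.14.6). The pairing and test had first been tried on simulated data, whose results are not given here. That simulation cannot show whether the paired sites of the real lists are true counterparts. The members, families and alternatives were chosen with earlier results of these data known. The planned alignment of each site to its parent, with the share of sites in the DRACH motif and of windows alike after conversion, was not run because no genome was used here; the pairing by equal spacing replaced it after the data had been seen. Genes were named by rule, except 1 that is not reported here: the 12 pseudogenes with the most shared sites, the 8 parents with the most copies, the 12 deepest pairs, the called pairs, and the 6 highest and 6 lowest sites of at least 100 reads. The largest coverage ratios, chromosome Y, DYNLL1P1, GLULP4, PBX2P1 and sites at starts were chosen after their values were seen.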

Additional observations from a re-analysis of the deposited data

How the results depend on the processing

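Of 59 recomputed values, 44 stayed within the interval of the reported one or, for counts, within 1.5 times of it. These intervals were taken over sites, pairs or genes and do not measure the spread between replicates. The median level difference between pseudogene and parent, 0.35 points and not tested, changed sign within its interval (-1.02 to 1.79), to -0.02 without replicate 2 and -0.22 at sites of at least 30 reads, and was 0.84 without replicate 1. The median level of pseudogene sites, 38.7% over sites listed in both replicates, was 32.4% to 33.1% with 1 replicate left out, 31.5% at sites of at least 30 reads, 55.6% at levels of at least 20% and 30% over sites listed in either. The 175 pairs of equal spacing became 98 at 30 reads, 97 with at least 3 pairs required, 320 with every spacing of at least 2 pairs and 538 where sites could enter several pairs. The 11 pairs called became 7 to 8 with 1 replicate left out, 6 with at least 3 pairs required, 28 with every spacing and 109 with sites entering several pairs, where the median difference was 6.61 points. At levels of at least 20%, Fisher's exact test called 0 of 79 pairs, 3 having an unadjusted p under 0.05. Pairs were formed anew there, so some that had been called were no longer tested. The settings on spacings and on sites entering several pairs were added after the data were seen. The coverage ratio with replicates averaged was 0.948 for plus-strand copies of minus-strand parents and 0.174 for the rest, and 0.890 to 0.916 and 0.169 to 0.182 with 1 replicate left out. Alternatives on aligned windows and the DRACH motif were not run, since no genome was used here. No paired analysis was possible because there is 1 group. Depth limits single pairs, and read assignment between copies was not tested.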
